A study of Homo sapiens with 2 samples.

Results

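Ubiquitin-conjugating enzymes and deubiquitinases were compared between H6c7 cells carrying an introduced K-ras oncogene and the parental H6c7 line, an immortalised human pancreatic duct epithelial line. The genes were those whose symbol begins with UBE2, UCHL or OTUD, or with USP and a digit, on probe sets annotated to a single gene. USP1 and Y-linked genes were left out. The choice gave 57 genes among 11963 named genes, 19 of them UBE2 genes and 38 carrying USP, UCHL or OTUD names. E2 and deubiquitinase genes without a probe set of a single annotated symbol were not analysed here, so neither class median covers its whole family. RNA of each line was hybridised to 1 Affymetrix U133A array. Neither the vector nor the clonal origin of the K-ras cells is given by the labels, and there is no empty-vector line. With 1 array per line there is no replicate error, no difference could be tested, and every ratio below describes these 2 arrays.

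Ubiquitin is activated by an E1 enzyme, passed to an E2 conjugating enzyme and attached to a substrate with the help of an E3 ligase. The E2 largely sets which kind of ubiquitin chain is built, and chain type decides between degradation by the proteasome and roles in signalling or DNA repair. Deubiquitinases cut ubiquitin off again, and the USP, UCH and OTU families are groups of cysteine proteases that do so. Related E2 enzymes carry ubiquitin-like proteins such as NEDD8, SUMO and ISG15.

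Signals are linear array intensities in arbitrary units. Ratios are K-ras over parental on the log2 scale. A gene below a floor of 46.9, the median signal of the K-ras array, on both arrays was called not measured, and where 1 array fell short of it the ratio was computed against the floor and is a bound, the true ratio lying at least that far from 0. The median signal was 46.9 on the K-ras array and 43.9 on the parental array. All 6 epithelial markers examined (KRT7, KRT8, KRT18, KRT19, EPCAM and CDH1) were above the floor in both lines. Their summed signals were 16726 in the K-ras line and 17827 in the parental line. Of 19 markers of fibroblasts, leukocytes, endothelium, acinar and endocrine cells, 6 were above the floor in K-ras cells and 2 in parental cells. Summed over all 19, most of them below the floor, their signals were 546 and 376 in the K-ras and parental lines. The part of such cells in the results was not tested, and a change in RNA per cell cannot be told apart from a change in the mix of cells.

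Of the 57 genes, 48 were measured. Among 18 measured E2 genes, 2 were higher and 2 lower by 2-fold or more in K-ras cells, and among 30 measured deubiquitinase-class genes, 2 were higher and 9 lower. Across all 7693 measured genes, 9.97% were higher and 14.4% lower by that much. The E2 shares of 11.1% higher and 11.1% lower were close to that background. Of the deubiquitinases 6.67% were higher, and the 9 lower ones are 9 of 30. The median log2 ratio was 0.23 for the E2 genes and -0.61 for the deubiquitinases, a difference of 0.83, while the median of all measured genes was 0.10. Signs divided the same way, with 11 E2 genes above 0 and 7 below, against 9 deubiquitinases above 0 and 21 below. Across all 7693 measured genes 4240 were above 0 and 3450 below, a balance near that of the E2 genes. Some deubiquitinases counted below 0 lay close to it, among them USP2 (-0.02), USP34 (-0.09) and the bounds of USP18 (-0.02) and USP12 (-0.05). Ratios that are bounds belonged to 10 deubiquitinases and to no E2 gene, so taking ratios against this floor bears on 1 class only. The rule for calling a gene measured bears on both, since it left out 1 E2 gene and 8 of the deubiquitinase class. Leaving the bounds out kept 20 deubiquitinases, 6 of them lower and 0 higher, since USP20 and USP36, the 2 higher ones, are bounds. The deubiquitinase median was then -0.57, and the difference from the E2 median was 0.80. Names on both sides include genes that are not enzymes of this kind. USP32P2 is a pseudogene, and USP6NL encodes a GTPase-activating protein for RAB GTPases. UBE2NL, on the E2 side, is a UBE2N-like transcribed pseudogene in the reference annotation. Without these 3 names, of which USP6NL was not measured, the medians were 0.25 and -0.59. UBE2V2 and USP39, described below as inactive, were kept in these medians.

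**Figure D1:**
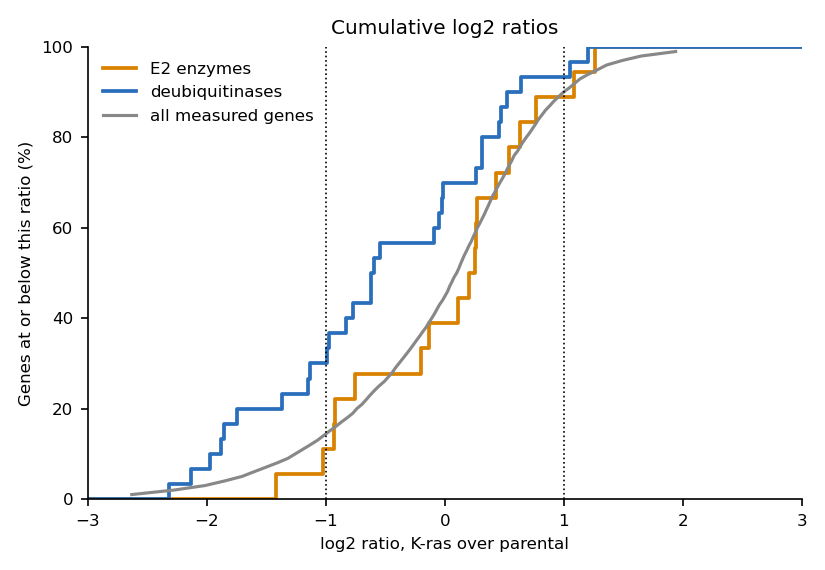
Cumulative distribution of the log2 ratio, K-ras over parental, for 18 measured E2 genes, 30 measured deubiquitinase-class genes and all 7693 measured genes, with dotted lines at 2-fold. The E2 curve runs close to that of all genes, with a median of 0.23 against 0.10, and the deubiquitinase curve lies to the left, with a median of -0.61.

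Of the E2 enzymes of the anaphase-promoting complex (APC/C), a ligase that drives mitotic exit, 1 was more than 2-fold higher in K-ras cells and 1 differed little. UBE2S, which extends ubiquitin chains on APC/C substrates, had a signal of 3253 in K-ras cells and 1528 in parental cells, 2.13-fold higher, a call lost with median centring (log2 ratio 0.99) and loess (0.98). UBE2C, which starts those chains, had 1187 in K-ras cells and 990 in parental cells. Its log2 ratio of 0.26 is less than the standard deviation of 0.46 between probe sets of 1 gene over the whole table. Each rests on 1 probe set. The ligase genes themselves had mostly negative ratios. Of 9 measured APC/C subunits and activators, none was 2-fold higher and 1 was lower, the median log2 ratio being -0.40, against 14.4% lower and a median of 0.10 over all genes. CDC27 was 3.29-fold lower, CDC23 and ANAPC13 had log2 ratios of -0.78 and -0.69, and ANAPC2 had 0.82.

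UBE2H had the highest E2 ratio. It encodes the E2 that works with the CTLH ligase, and its signal was 565 in K-ras cells and 236 in parental cells, 2.40-fold higher. A second, _x_at probe set, of a kind that can detect related transcripts, gave a log2 ratio of 0.60, and with the median over probe sets (0.93) UBE2H was under 2-fold.

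Both members of the E2 pair that builds non-degradative chains in DNA damage tolerance were lower. UBE2V2, the catalytically inactive partner in that pair, had a signal of 108 in K-ras cells and 290 in parental cells, 2.68-fold lower. UBE2N, its catalytic partner, had 550 in K-ras cells and 1122 in parental cells, 2.04-fold lower, just past the threshold. The UBE2N call was lost with scaling on maintenance probe sets (-0.83) and with the floor as a pseudocount (-0.97). The UBE2N value comes from an _x_at probe set. The other UBE2N probe sets were at -0.70 and -1.49 on the log2 scale, the larger one from the only UBE2N probe set without an _x_at ending. UBE2NL, measured by an _x_at probe set that may share sequence with UBE2N, had a log2 ratio of 0.11. The RAD6 homologues UBE2A and UBE2B, which modify histone H2B and the replication clamp PCNA, were both under 2-fold. UBE2A was at 0.63 and 0.11 on the log2 scale by its 2 probe sets. UBE2B had 0.25 on the probe set used, with others at 0.32 and -0.82.

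The promoters of UBE2S and UBE2N are shown because these E2 genes passed 2-fold in opposite directions. Each is the RefSeq window of 250 bases before to 50 after the transcription start, 5′ to 3′ on the gene's strand, in GRCh38.p14. UBE2S lies at chr19:55407739-55408038 and UBE2N at chr12:93441898-93442197, both on the minus strand. Capitals mark matches, on either strand, to 5 motifs searched, the CCAAT box, the GC box GGGCGG, the ETS core CCGGAAG, the cyclic AMP element TGACGTCA and the cell cycle element TTTGAA.
UBE2S: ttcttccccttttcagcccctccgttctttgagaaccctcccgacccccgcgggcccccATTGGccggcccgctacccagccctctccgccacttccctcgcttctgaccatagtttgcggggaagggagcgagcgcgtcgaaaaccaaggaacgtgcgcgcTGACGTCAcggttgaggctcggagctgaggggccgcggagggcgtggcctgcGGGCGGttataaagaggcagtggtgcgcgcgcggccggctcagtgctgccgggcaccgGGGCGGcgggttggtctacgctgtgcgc
UBE2N: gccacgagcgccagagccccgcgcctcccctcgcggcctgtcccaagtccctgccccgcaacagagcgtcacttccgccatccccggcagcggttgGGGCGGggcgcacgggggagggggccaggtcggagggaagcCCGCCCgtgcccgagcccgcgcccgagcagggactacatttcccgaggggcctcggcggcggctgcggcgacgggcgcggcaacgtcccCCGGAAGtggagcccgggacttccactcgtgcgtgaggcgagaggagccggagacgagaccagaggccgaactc
The UBE2S window holds 1 CCAAT, 2 GGGCGG and 1 TGACGTCA match, which do not overlap. The UBE2N window holds 2 GGGCGG matches and 1 CCGGAAG match. Among 35116 windows of the same length in the reference table, 34.6% hold CCAAT, 45.0% GGGCGG, 10.3% CCGGAAG, 1.85% TGACGTCA and 15.2% TTTGAA. A match is a run of letters in this window and not a measured binding site.

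UBE2E1 and UBE2E3, closely related E2 enzymes that pair with RING ligases, lay just short of 2-fold. UBE2E1 had a signal of 299 in K-ras cells and 571 in parental cells, and UBE2E3 had 331 in K-ras cells and 626 in parental cells. Their log2 ratios were -0.93 and -0.92. UBE2D4, of the UBE2D group of general-purpose E2 enzymes, had 345 in K-ras cells and 257 in parental cells, with 4 measured probe sets between 0.39 and 0.54.

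The E2 enzymes of endoplasmic reticulum degradation did not move together. UBE2J1, anchored in the reticulum membrane, had 267 in K-ras cells and 184 in parental cells, with log2 ratios of 0.02 to 0.54 over 4 probe sets. UBE2G2, recruited to the same pathway, had 77.4 in K-ras cells and 131 in parental cells, a log2 ratio of -0.76, but its second probe set gave 0.18. UBE2G1, which extends chains on cullin ligase substrates, had log2 ratios of 0.20 and -0.43. UBE2K, a maker of degradative chains, gave -0.13 on the probe set used, with signals of 453 in K-ras cells and 496 in parental cells. Its other probe set gave 108 in K-ras cells and 305 in parental cells, a log2 ratio of -1.50, so its call turns on the choice of probe set.

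Of the remaining E2 genes none passed 2-fold. UBE2Z, which takes ubiquitin from the E1 enzyme UBA6, had a signal of 929 in K-ras cells and 547 in parental cells, a log2 ratio of 0.76. UBA6 itself was below the floor in K-ras cells, with a bound of -0.56. UBE2L6, the E2 for the interferon-induced modifier ISG15, had 325 in K-ras cells and 270 in parental cells. ISG15 was 2.28-fold higher, and USP18, which removes ISG15, was at 43.7 in K-ras cells and 47.4 in parental cells, around the floor in both. UBE2Q1 had a log2 ratio of -0.20, and UBE2O, a large enzyme combining E2 and E3 activity, was below the floor on both arrays.

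**Figure D2:**
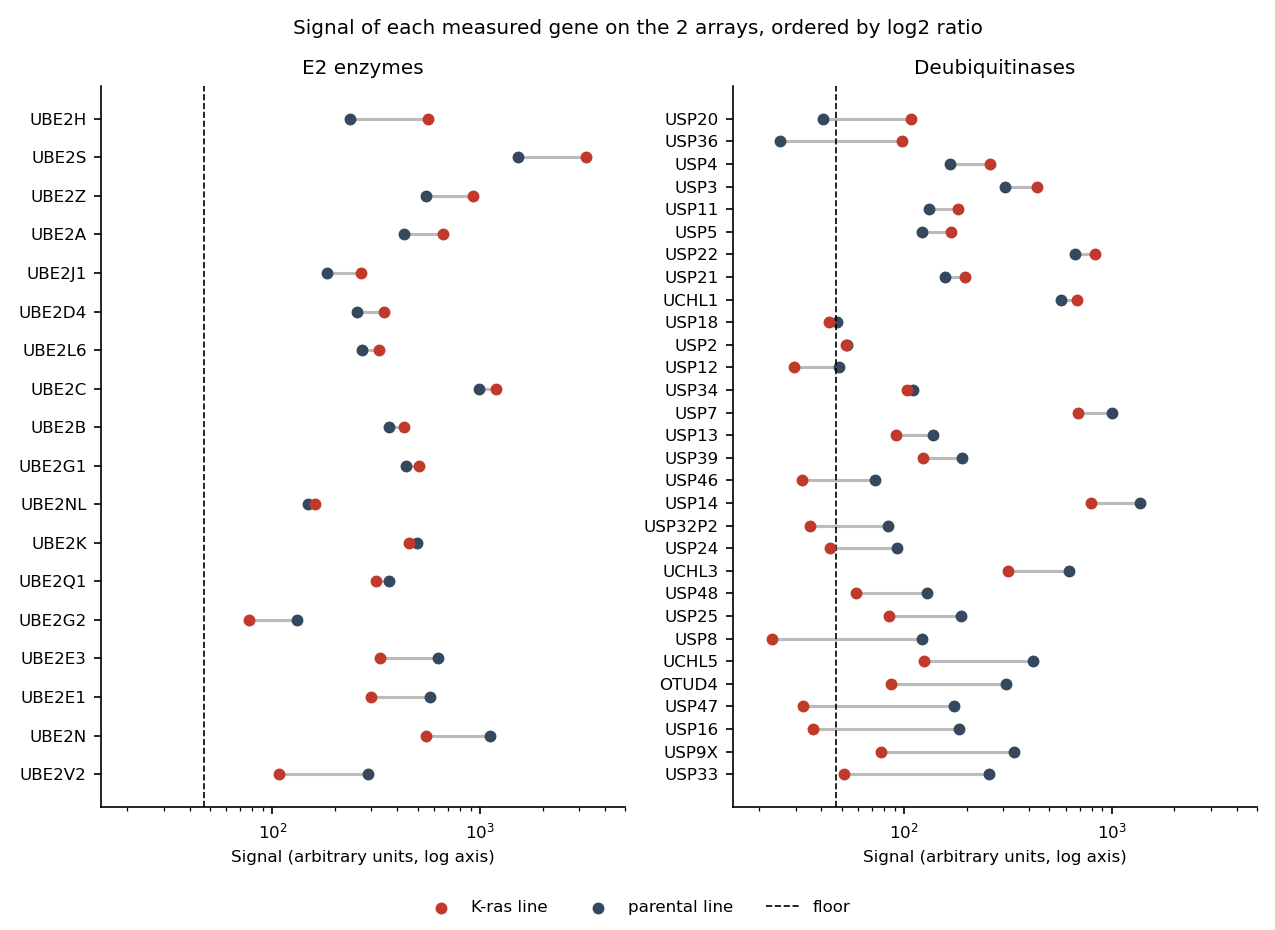
Signal on the K-ras array (red) and the parental array (dark) for 18 E2 genes and 30 deubiquitinase-class genes, on log axes, ordered by log2 ratio from the highest at the top, with the floor of 46.9 as a dashed line. All measured E2 genes were above the floor on both arrays, while 10 deubiquitinase-class genes were below it on 1 array.

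Deubiquitinases linked to membranes and organelles held the widest contrast between relatives. USP33 and USP20 are closely related enzymes known to bind the VHL tumour suppressor protein. USP33 had a signal of 51.2 in K-ras cells and 256 in parental cells, a log2 ratio of -2.32, the lowest among members above the floor on both arrays. Its K-ras signal lies just above the floor, and without a floor USP47 (-2.41), USP8 (-2.39) and USP16 (-2.34) were slightly lower. A second USP33 probe set, at 6.10 in K-ras cells and 63.8 in parental cells, gave a bound of -0.44, and the third was below the floor on both arrays. USP20 had 108 in K-ras cells and 40.8 in parental cells, at least 2.31-fold higher, on 1 probe set. USP9X, a large X-encoded deubiquitinase of many substrates, had 77.2 in K-ras cells and 339 in parental cells, 4.39-fold lower, and its probe sets were at -2.13 and -2.26 on the log2 scale. USP8, which acts on endosomes and removes ubiquitin from receptors such as EGFR, had 23.1 in K-ras cells and 121 in parental cells, at least 2.59-fold lower. Of the endosomal partners of USP8, STAM had a log2 ratio of 0.49 and STAM2 -0.77. USP19 was below the floor on both arrays.

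The promoters of USP20 and USP33 are shown because these relatives lay on opposite sides of 2-fold. The windows, from the same table and build, are chr9:129835208-129835507 on the plus strand for USP20 and chr1:77759803-77760102 on the minus strand for USP33, with the same motifs in capitals.
USP20: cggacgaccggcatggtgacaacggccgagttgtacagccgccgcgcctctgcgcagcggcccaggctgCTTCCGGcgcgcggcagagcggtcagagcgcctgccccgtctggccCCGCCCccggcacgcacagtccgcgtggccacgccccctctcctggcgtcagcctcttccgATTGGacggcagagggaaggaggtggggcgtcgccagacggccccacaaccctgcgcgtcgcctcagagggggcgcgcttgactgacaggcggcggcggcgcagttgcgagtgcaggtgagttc
USP33: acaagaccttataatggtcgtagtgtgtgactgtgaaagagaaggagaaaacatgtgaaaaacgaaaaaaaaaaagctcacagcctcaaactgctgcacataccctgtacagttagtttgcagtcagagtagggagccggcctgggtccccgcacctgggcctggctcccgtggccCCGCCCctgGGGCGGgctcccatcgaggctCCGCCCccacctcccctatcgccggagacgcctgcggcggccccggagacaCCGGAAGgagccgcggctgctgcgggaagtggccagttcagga
The USP20 window holds 1 CCAAT, 1 GGGCGG and 1 CCGGAAG match. The USP33 window holds 3 GGGCGG matches and 1 CCGGAAG match. Windows were found for 46 of the 57 genes, 62 windows in all, since some genes have several starts. GGGCGG occurs in 12 of 16 E2 windows and 35 of 46 deubiquitinase windows, against 45.0% of all windows. In the same order, CCAAT occurs in 4 and 11 (34.6% of all windows) and CCGGAAG in 3 and 8 (10.3%). TGACGTCA occurs in 1 and 0 (1.85%), and TTTGAA in 0 and 1 (15.2%). These counts are of windows and not of genes.

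Both cysteine deubiquitinases of the proteasome had lower signals in K-ras cells, one by more than 2-fold. UCHL5, which is bound to the proteasome through the receptor ADRM1, had 124 in K-ras cells and 418 in parental cells, 3.36-fold lower, with a second probe set giving a bound of -0.83. USP14, which trims chains at the proteasome entrance, had 798 in K-ras cells and 1360 in parental cells, a log2 ratio of -0.77, while its second probe set gave -1.29. PSMD14, the zinc-dependent deubiquitinase of the proteasome lid, was 2.86-fold lower. The docking subunits ADRM1 and PSMD2 both had log2 ratios of 0.62. Of the other UCH enzymes, UCHL3 had 315 in K-ras cells and 624 in parental cells, a log2 ratio of -0.99, the nearest to 2-fold among members short of it. UCHL1, an enzyme best known from neurons, had 682 in K-ras cells and 570 in parental cells, a log2 ratio of 0.26.

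Deubiquitinases of chromatin and of the p53 pathway were divided. USP16, a histone H2A deubiquitinase needed for mitosis, had a signal of 36.5 in K-ras cells and 184 in parental cells, at least 3.93-fold lower, on an _x_at probe set. USP36, a nucleolar enzyme that stabilises MYC, had 97.3 in K-ras cells and 25.2 in parental cells, at least 2.07-fold higher. The histone enzymes USP22, USP3 and USP21 were under 2-fold and above 0. USP22, of the SAGA coactivator, had 828 in K-ras cells and 665 in parental cells, USP3 had 438 in K-ras cells and 305 in parental cells, and USP21 had 196 in K-ras cells and 158 in parental cells. Their log2 ratios were 0.32, 0.52 and 0.31. USP11 had a log2 ratio of 0.48. USP7, which acts on MDM2 and p53, had 688 in K-ras cells and 1004 in parental cells, a log2 ratio of -0.54, while its second measured probe set gave -0.79. USP2 was near the floor on both arrays, at 52.3 in K-ras cells and 53.2 in parental cells. USP27X and USP49 were not measured.

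Several deubiquitinases outside these groups were lower. OTUD4, the 1 measured OTUD gene, had 86.0 in K-ras cells and 311 in parental cells, 3.61-fold lower, while OTUD3 and OTUD7B were below the floor on both arrays. USP47, known for acting on DNA polymerase beta, had 32.7 in K-ras cells and 173 in parental cells, at least 3.69-fold lower. USP25 had 84.4 in K-ras cells and 187 in parental cells, 2.22-fold lower. USP48 had 58.7 in K-ras cells and 129 in parental cells, 2.19-fold lower. Both calls were lost with scaling on maintenance probe sets, at -0.95 for USP25 and -0.94 for USP48. USP24 had 44.2 in K-ras cells and 92.2 in parental cells, a bound of -0.98, just short of 2-fold, and -0.67 in a second probe set. USP34, which acts on axin in WNT signalling, had 103 in K-ras cells and 110 in parental cells on an _x_at probe set, a log2 ratio of -0.09. A second probe set gave 37.9 in K-ras cells and 276 in parental cells, at least 5.88-fold lower, and the third measured one gave a bound of -0.51. The USP34 call thus turns on the choice of probe set. The pseudogene USP32P2 had a bound of -0.83 on an _x_at probe set. USP29, USP53 and USP6NL were not measured.

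The remaining deubiquitinases are given as pairs. USP5 and USP13 are relatives, and USP5 is known for recycling free ubiquitin chains. USP5 had 167 in K-ras cells and 122 in parental cells, and USP13 had 91.7 in K-ras cells and 139 in parental cells, log2 ratios of 0.46 and -0.59. USP4, which acts with the splicing factor SART3, had 258 in K-ras cells and 166 in parental cells, and was at 0.64 and 0.28 on the log2 scale by 2 probe sets. USP39, a spliceosome protein without deubiquitinase activity, had 123 in K-ras cells and 189 in parental cells, a log2 ratio of -0.62. USP12 and USP46, paralogues activated by WDR48, were both below the floor in K-ras cells, with bounds of -0.05 and -0.62, and without a floor USP46 was at -1.16. WDR48 was 2.02-fold lower.

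Probe sets of the same gene are the one repeat measurement here, and they are technical. Of the 57 genes, 34 have a single probe set, and 18 have at least 2 measured probe sets. In 3 of these 18 (UBE2B, UBE2G1 and UBE2G2) probe sets had opposite signs. For the 13 members with several probe sets above the floor in both lines, probe sets of 1 gene had a pooled standard deviation of 0.43 in log2 ratio, against 0.46 for 1671 genes of the whole table. The 0.43 leaves out USP34 and USP33, which have bounds among their probe sets. Their measured probe sets differed by 2.47 and 1.88, bounds included, the widest ranges of the 18 members. The 2 probe sets of USP9X differed by 0.13 and the 4 measured ones of UBE2D4 by 0.15.

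**Figure D3:**
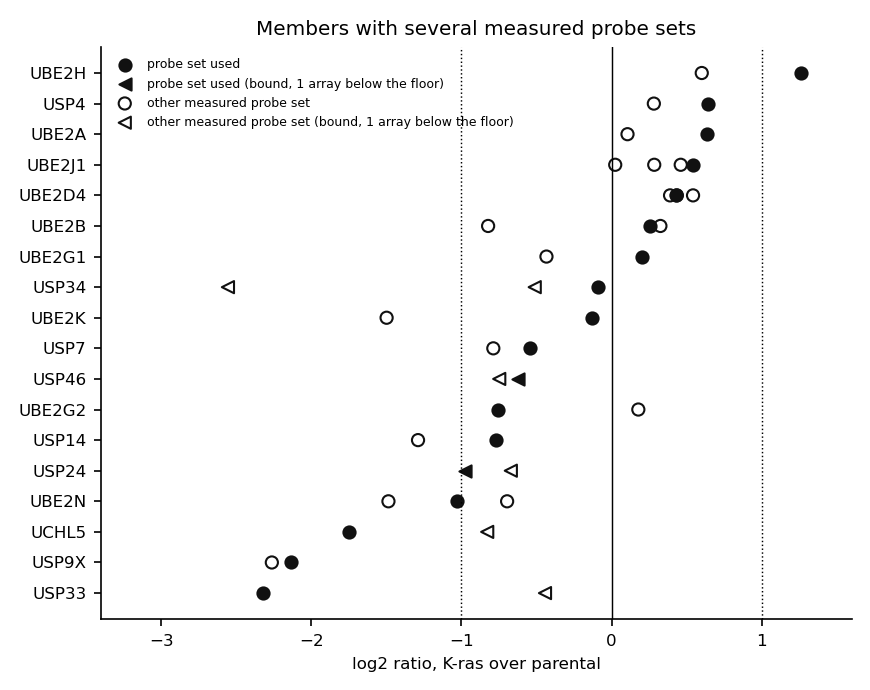
log2 ratios, K-ras over parental, of every measured probe set of the 18 members that have several, with the probe set used filled, others open, and bounds as triangles. The values of USP34 run from -2.55, a bound, to -0.09 and those of UBE2K from -1.50 to -0.13. Triangles mark values whose true ratio lies further from 0, so ranges that include one are not exact.

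The 2 classes also differed in gene size. The median genomic span of measured genes was 27.9 kb for the E2 genes and 56.3 kb for the deubiquitinases, against 29.6 kb for all measured genes with a span. Over all 7691 such genes, longer genes had lower ratios, with Pearson's r = -0.22 and Spearman's rho = -0.24 between log span and log2 ratio, values over genes of 1 pair of arrays and not over samples. Over the 48 members the same values were -0.37 and -0.42. Among genes shorter than 50 kb, the median log2 ratio was 0.26 for 12 E2 genes, -0.02 for 13 deubiquitinases and 0.20 for 5097 genes of any kind. Among longer genes it was -0.53 for 6 E2 genes, -0.77 for 17 deubiquitinases and -0.14 for 2594 genes of any kind. In both size ranges the deubiquitinase median was the lower of the 2 classes. Within each range, however, the class medians lay closer together than the 0.83 between them over all sizes. With the trend on span subtracted, the E2 and deubiquitinase medians were 0.08 and -0.42, a difference of 0.50 in place of 0.83. Span moves with class, and its part in the difference beyond this adjustment was not tested.

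**Figure D4:**
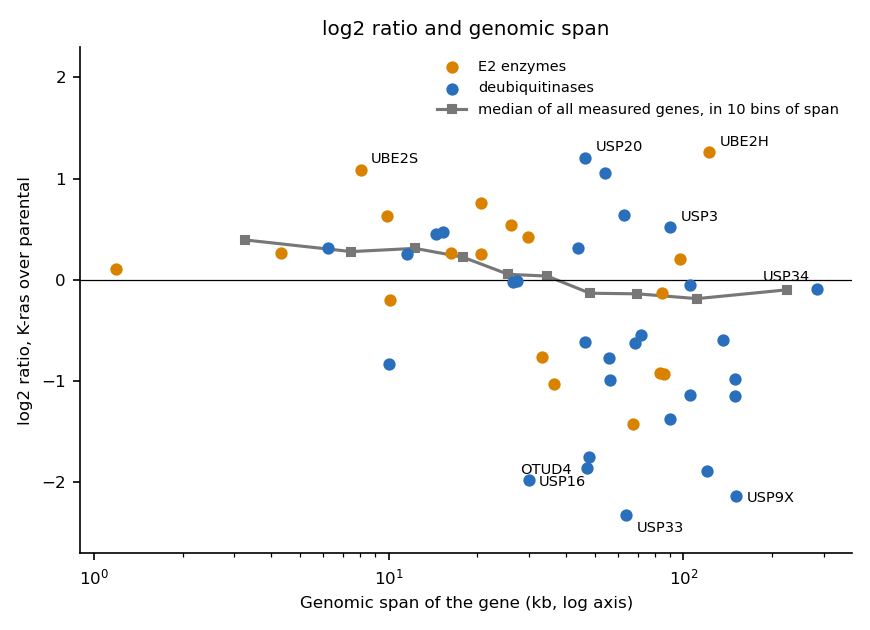
log2 ratio, K-ras over parental, against genomic span in kb on a log axis for 18 E2 genes and 30 deubiquitinase-class genes, with the median of all measured genes in 10 equal bins of span as grey squares. The grey median goes from 0.40 in the bin of shortest genes to -0.10 in that of the longest. Of the 9 lower deubiquitinases 6, such as USP9X and USP33, are above 50 kb and 3 (USP16, OTUD4 and UCHL5) below it, and UBE2H is a long gene with a high ratio.

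Genes that act before and after the E2 enzymes varied by branch, and each count below stands against 9.97% higher, 14.4% lower and a median of 0.10 over all measured genes. The ubiquitin E1 enzyme UBA1 and the SUMO E1 subunit SAE1 had log2 ratios of 0.50 and 0.39. UBA6, also an E1 for ubiquitin, went the other way, with a bound of -0.56. Of 5 measured E1 genes, 2 were lower and none higher, and both are subunits of the NEDD8 E1, NAE1 (5.94-fold lower) and UBA3 (at least 2.95-fold lower). NEDD8 itself had a log2 ratio of 0.49. Among 6 measured ubiquitin and ubiquitin-like genes, ISG15 was the 1 that passed 2-fold, and the polyubiquitin gene UBB had a log2 ratio of -0.93.

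In the list of cullin ligase genes, whose cullins are activated by NEDD8, 1 of 19 measured genes was higher (5.26%). In it 6 were lower (31.6%, against 14.4% of all genes), with a median of -0.70 and a median span of 50.6 kb. The list holds core subunits but also F-box genes, among them FBXO5, 1 of the 6 lower (at least 2.29-fold). CAND1, which exchanges cullin substrate receptors, was 5.18-fold lower, CUL5 at least 4.13-fold and the receptor SKP2 3.88-fold on an _x_at probe set, and CUL1 2.63-fold lower. The 1 higher gene was CDC34, the E2 of these ligases that does not carry a UBE2 symbol, at 471 in K-ras cells and 191 in parental cells, 2.46-fold higher. Of 17 measured HECT and RBR ligases, which accept ubiquitin from the E2 before passing it on, 5 were lower (29.4%, against 14.4% of all genes) and none higher, and the median log2 ratio was -0.55. The median span of these ligase genes was 130 kb, against 29.6 kb for all measured genes, and its part in their count was not tested. NEDD4 was 4.11-fold lower, WWP1 at least 3.70-fold, UBE3A 2.80-fold and ARIH1 2.70-fold. In the list of SUMO proteases and ligases, 2 of 8 were lower and none higher, SENP6 (at least 2.54-fold) and RANBP2 (at least 3.20-fold, _x_at).

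Deubiquitinases outside the naming rule went both ways. Of 11 measured, 2 were higher and 3 lower, with a median of 0.20. JOSD1 was 3.67-fold higher, and TNFAIP3, the NF-kB feedback inhibitor A20, was 3.15-fold higher, with 1254 in K-ras cells and 398 in parental cells. The 3 lower ones, BRCC3 (at least 5.54-fold, _x_at), COPS5 (4.65-fold), which removes NEDD8 from cullins, and PSMD14, are zinc-dependent enzymes, and a further one, STAMBP, had a log2 ratio of 0.51. Of 10 measured deubiquitinase partners, 2 were lower and none higher, WDR48 and G3BP2 (2.23-fold), a relative of the USP10 partner G3BP1.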

How the data were processed

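RNA of the K-ras line and of the parental line was measured on 1 array each. The deposited table gives 1 linear intensity per probe set and array for 22283 probe sets. Both columns as deposited have the same mean, to 4 digits, after 2% of values are trimmed at each end, the form of a signal scaled by the authors to a common target. The software that produced them was not given in the sources used here. Columns were brought to exactly equal trimmed means. Symbols came from the platform annotation, in which 19071 probe sets have 1 gene symbol, 1043 several and 2169 are unnamed here, and were updated by gene number to GRCh38.p14, which changed none of the 57 members. The probe set with the highest mean log2 signal stood for its gene. The floor was the higher of both arrays' median signals, and bounds were taken against it.

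With 1 array per group there is no test and no p-value, and the number of arrays limits precision. Counts past 2-fold and medians are set against those of all measured genes. Every measured member was named with values, and up to 4 genes of each pathway list with the largest ratios. Others were named beside a related member, chosen after their values were seen. Members, roles and lists were chosen with earlier results of these data known, and the limit of 50 kb after the spans were seen. The procedure was run on simulated arrays, with changes above 2-fold planted in genes well above the floor in parental cells. That run does not bear on calls near the floor or near 2-fold. Alternatives were 5 scalings, 4 treatments of the floor, 2 choices of probe set and a 3-fold threshold. Promoter windows and gene spans are from RefSeq. Python 3.11.15, numpy 2.4.6, pandas 2.3.3, statsmodels 0.14.6 and matplotlib 3.10.9 were used.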

Additional observations from a re-analysis of the deposited data

How the results depend on the processing

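No paired analysis was possible because each line has 1 array. The E2 median lay above the deubiquitinase median under each of the 11 alternatives to scaling, floor and probe set, by 0.70 to 0.85, and no member at least 2-fold changed turned its sign under them. Values as deposited, median centring and maintenance scaling differ from the main scaling only by a constant per array. Such a constant shifts all ratios alike, so these could change the class difference only through the floor and are no check of it. Of 489 values of single members under the 11 alternatives, 462 moved by less than the standard deviation between probe sets of a gene and 27 by more. Relative to all genes the E2 median has no settled place, since with no floor it was 0.25 against 0.26. The E2 median was 0.42 after scaling on 100 maintenance probe sets, which put the median of all genes at 0.24 in place of 0.10, and 0.084 after subtraction of the span trend, an alternative chosen after seeing the data. The deubiquitinase median was -0.70 with median centring, -0.42 with maintenance scaling, -0.50 with no floor, -0.49 with the floor as a pseudocount and -0.42 without the span trend, which left a difference of 0.50.

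E2 genes at least 2-fold higher were 1 with median centring, loess or the median over probe sets, and 0 without _x_at and _s_at probe sets or at 3-fold. Lower E2 genes were 4 with median centring, 1 with maintenance scaling or the pseudocount, where UBE2N was at -0.83 and -0.97, and 0 at 3-fold. Higher deubiquitinases, both bounds, were 1 with loess or without _x_at and _s_at probe sets, and 0 under the pseudocount, the 70th percentile floor or 3-fold. Lower deubiquitinases were 4 of 20 under the 70th percentile floor, where 632 of 4987 genes of any kind were lower. Without _x_at and _s_at probe sets they were 2 of only 12 measured, a share close to the 721 of 4658 genes of any kind. Only 9 E2 genes were measured there and 3 of those 9 were lower, a larger share than the deubiquitinases had. At 3-fold 6 of 30 deubiquitinases were lower, against 480 of 7693 genes of any kind. By gene, USP36 was at 0.96 with loess, USP20, USP25 and USP48 were at 0.82, -0.83 and -0.73 with the pseudocount, and USP16, USP25, USP47 and USP48 were under 2-fold with the 70th percentile floor.

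Among all genes, those higher and lower were 451 and 632 of 4987 under the floor at the 70th percentile. They were 460 and 721 of 4658 without _x_at and _s_at probe sets, 185 and 480 of 7693 at 3-fold, and 2428 and 1797 of 11963 with no floor. Scaling on maintenance probe sets gave 1093 higher and 844 lower, so that it, like the absence of a floor, turned the balance of all genes. Higher genes were 1363 with the floor at the 30th percentile and 469 with the pseudocount. Fewer probe sets or a stricter threshold lower these counts by construction, and other causes were not tested. Signals near the floor limit USP33, USP48 and all bounds.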
